A study of Mus musculus with 6 samples.

Results

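The DNAJ proteins, also called HSP40 or J proteins, are the co-chaperones that bring unfolded proteins to HSP70 and make it hydrolyse ATP, so that HSP70 closes on its client. Class A members carry a J domain, a glycine- and phenylalanine-rich stretch and a zinc finger, class B members lack the zinc finger, and class C members share little beyond the J domain and are often tied to one place or task. Some cytosolic members are induced by heat together with HSP70, whereas members of the endoplasmic reticulum serve the HSP70 of that compartment, which in B cells folds immunoglobulin chains. The members were the genes of the deposited table whose symbol starts with Dnaja, Dnajb or Dnajc followed by a digit. These were 45 gene names with 56 entries, of 20458 gene names with 25017 entries in all: 4 Dnaja, 13 Dnajb and 28 Dnajc genes.

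Follicular B cells, gated as B220+AA4.1-CD23+CD21lo, were taken by sorting from C57BL/6 mice and their RNA was sequenced, 3 samples of CD23Cre+Myh9wt/fl and 3 samples of CD23Cre+Myh9fl/fl genotype. All mice carried Cre under control of the CD23 promoter, which is active from a late stage of B cell maturation, and loss of Myh9 removes the heavy chain of myosin IIa. Since the wt/fl mice also have Cre and 1 floxed allele, the comparison was between haploinsufficient and deficient cells and had no wild-type group. The age of the sampled mice is not given in the labels. Values were available as 1 pooled FPKM (fragments mapped to a transcript, scaled by its length and by the size of the library) per genotype. There was therefore no spread between mice, no test could be made, and all differences are descriptions of these pooled values. The depth of each sample is unknown.

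Myh9, the deleted gene, had 50.6 FPKM in wt/fl against 21.1 FPKM in fl/fl cells, 41.7% of the wt/fl level. It is listed on chromosome 15 from 77591018 to 77672545, in the coordinates of the table, which are those of mouse build mm9. B cell identity was present in both pools. Of 9 B cell markers, 9 were above 1 FPKM, none differed 1.5-fold, and their summed level was 12332 FPKM in wt/fl against 12522 FPKM in fl/fl. Cd74, the invariant chain of MHC class II, was the most abundant with 7307 and 7237 FPKM. Fcer2a, which encodes CD23, had 438.8 FPKM in wt/fl against 588.4 FPKM in fl/fl.

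To compare genes, FPKM was summed over the entries of a gene name, and a gene was kept when the mean of its 2 pooled values was at least 1 FPKM. The ratio was taken as fl/fl over wt/fl after 1 FPKM had been added to each value, which understates the difference of genes with low values. Of the 45 Dnaj genes, 38 passed this filter. The other 7 were Dnaja4, Dnajb3, Dnajb8, Dnajc5b, Dnajc5g, Dnajc6 and Dnajc22, of which Dnajc5b and Dnajc22 are listed at 0 in both genotypes. Most of these are genes of testis or neurons.

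Follicular B cells held Dnaj transcripts at very different levels. Dnaja1, a class A co-chaperone of the cytosol, had the highest mean with 100.5 FPKM. It was followed by Dnajc9, a histone chaperone, with a mean of 98.7 FPKM, and by Dnajc7, which binds both HSP70 and HSP90, with a mean of 92.2 FPKM. Dnajb6, which keeps aggregation-prone proteins soluble, and Dnajb11, a partner of the endoplasmic reticulum HSP70, had means of 83.2 and 76.6 FPKM. The plot of pooled FPKM by gene shows that the compared members spanned from a mean of 1.23 FPKM for Dnajc28 to that of Dnaja1, and that the values of the genotypes lay close together for most of them.

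**Figure D1:**
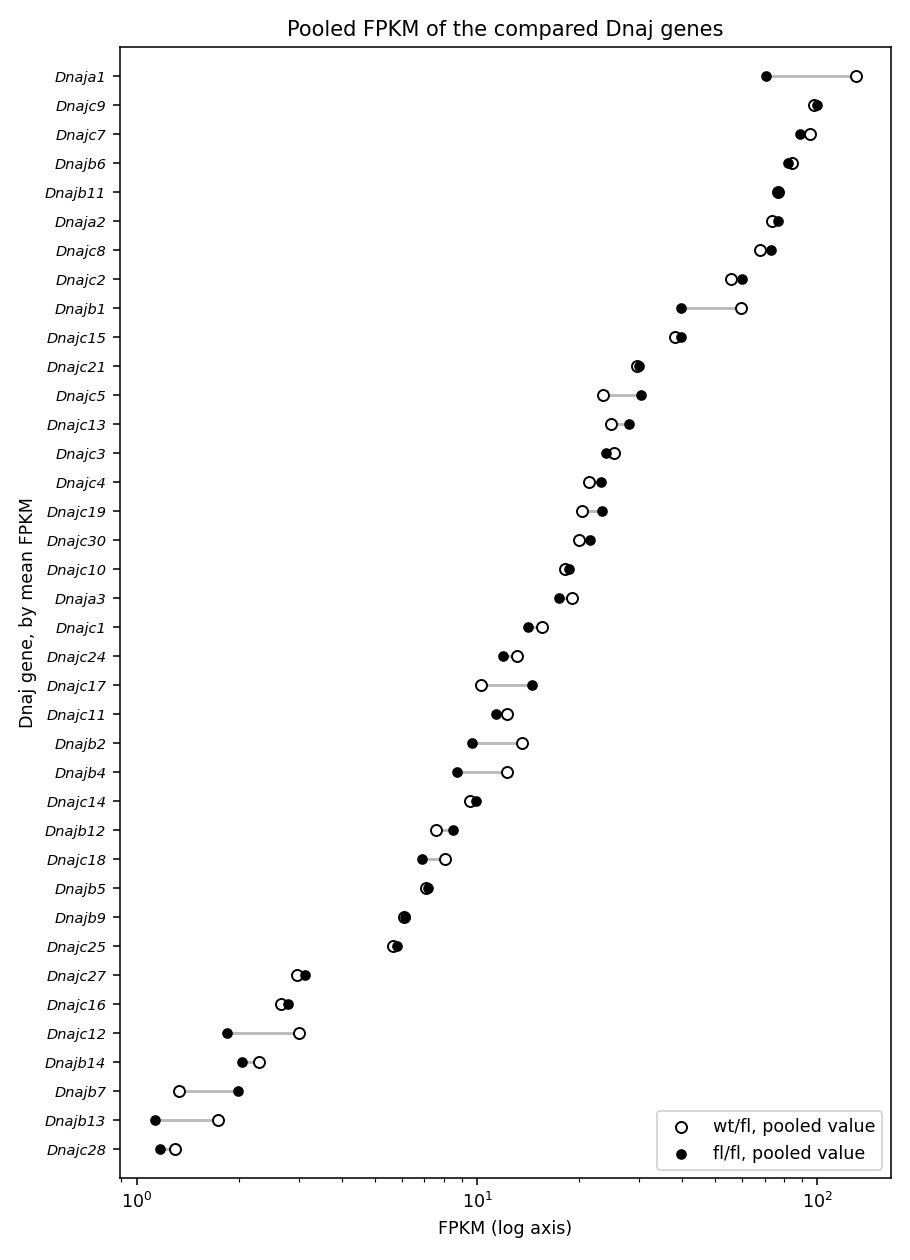
Pooled FPKM of the 38 compared Dnaj genes on a log axis, ordered by mean FPKM, with open circles for wt/fl and filled circles for fl/fl cells and no error, since there was 1 value per genotype. Dnaja1 had the highest mean and the longest gap in FPKM, from 130.0 in wt/fl to 70.9 in fl/fl.

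Of the 38 compared Dnaj genes, 1 was at least 1.5-fold lower in fl/fl cells and 0 were at least 1.5-fold higher. Among all 9866 compared genes, 151 (1.53%) were 1.5-fold lower and 78 (0.791%) were 1.5-fold higher, and the 2.63% of Dnaj genes that were lower is a single gene. That gene was Dnaja1, with 130.0 FPKM in wt/fl against 70.9 FPKM in fl/fl, 54.5% of the wt/fl level and a log2 ratio of −0.87. Of all compared genes, 58 had a lower log2 ratio. Dnaja1 has 1 entry, on chromosome 4 from 40667186 to 40704918 (mm9), and this locus overlaps that of its neighbour Smu1, a splicing factor gene with 45.1 and 45.7 FPKM.

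The member closest to the threshold without passing it was Dnajb1, the classical heat-inducible HSP40. Dnajb1 had 59.8 FPKM in wt/fl against 39.8 FPKM in fl/fl, 66.7% of the wt/fl level, with a log2 ratio of −0.57. It misses the threshold only through the added 1 FPKM, since without it the ratio just reaches 1.5-fold. With no pseudocount, an alternative chosen after seeing the data, 4 of 38 Dnaj genes (10.5%) were 1.5-fold lower, beside 2.82% of all compared genes, and these were Dnaja1, Dnajb1, Dnajb13 and Dnajc12. Dnajb1 lies on chromosome 8 from 86132073 to 86135802 (mm9). On the other side, Dnajc17, a gene of the splicing machinery, was nearest to a 1.5-fold higher level with 10.3 and 14.5 FPKM and a log2 ratio of 0.46. This order depends on the added 1 FPKM, since with 0.1 FPKM or no pseudocount Dnajb7 was nearer, at 0.54 and 0.58 against 0.49 and 0.50 for Dnajc17.

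With milder thresholds of at least 20% lower or 25% higher, which are the same distance on the log scale, 6 of 38 Dnaj genes (15.8%) were lower in fl/fl, beside 5.48% of all compared genes, and 3 of 38 (7.89%) were higher, beside 4.6%. The 6 lower genes were Dnaja1, Dnajb1, Dnajb2, Dnajb4, Dnajb13 and Dnajc12. Dnajb4, a close relative of Dnajb1, had 12.3 FPKM in wt/fl against 8.73 FPKM in fl/fl. Dnajb2, which has ubiquitin-binding motifs, had 13.6 and 9.68 FPKM. The remaining genes of low level were Dnajc12, with 2.99 and 1.84 FPKM, and Dnajb13, a gene of motile cilia and sperm tails, with 1.73 and 1.13 FPKM. The 3 higher genes were Dnajc17, Dnajc5 and Dnajb7. Dnajc5, the cysteine string protein of secretory vesicles, had 23.4 FPKM in wt/fl against 30.4 FPKM in fl/fl, and Dnajb7 had 1.33 and 1.98 FPKM. Loci of 8 members overlap that of another gene name, among them Dnajb7 with Xpnpep3 and Dnajc17 with Zfyve19 and Gm14137, and reads of overlapping genes may not have been separated. The other 29 genes had log2 ratios between −0.19 for Dnajc18 and 0.19 for Dnajc19.

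**Figure D2:**
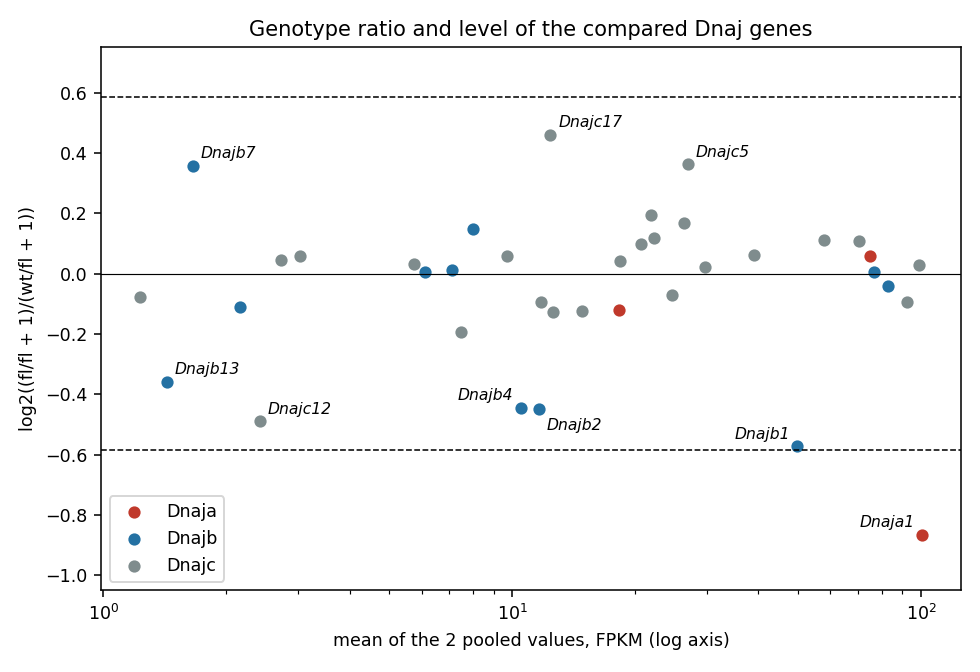
Log2 ratio of fl/fl over wt/fl, with 1 FPKM added to each pooled value, against the mean FPKM on a log axis for the 38 compared Dnaj genes, coloured by class, with dashed lines at 1.5-fold. Dnaja1 is the only point beyond a dashed line, and names are given for the 9 genes past the milder thresholds of 20% lower or 25% higher.

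As a family the Dnaj genes lay near the middle of all genes. Their median log2 ratio was 0.0167, beside 0.0026 for all compared genes. The median was −0.12 for the 3 compared Dnaja genes, −0.040 for the 11 Dnajb genes and 0.043 for the 24 Dnajc genes. The Dnaja value is that of a single gene, Dnaja3, because Dnaja1 lay below it and Dnaja2 above. With the most abundant entry of each gene only, the Dnaja and Dnajb medians were above 0, at 0.0059 and 0.0046. Without a filter these medians were −0.25 and −0.11. The ticks of the plot of all compared genes show that the members were spread around 0 in each class, with Dnaja1, Dnajb1, Dnajc12, Dnajb2, Dnajb4 and Dnajb13 furthest to the left.

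**Figure D3:**
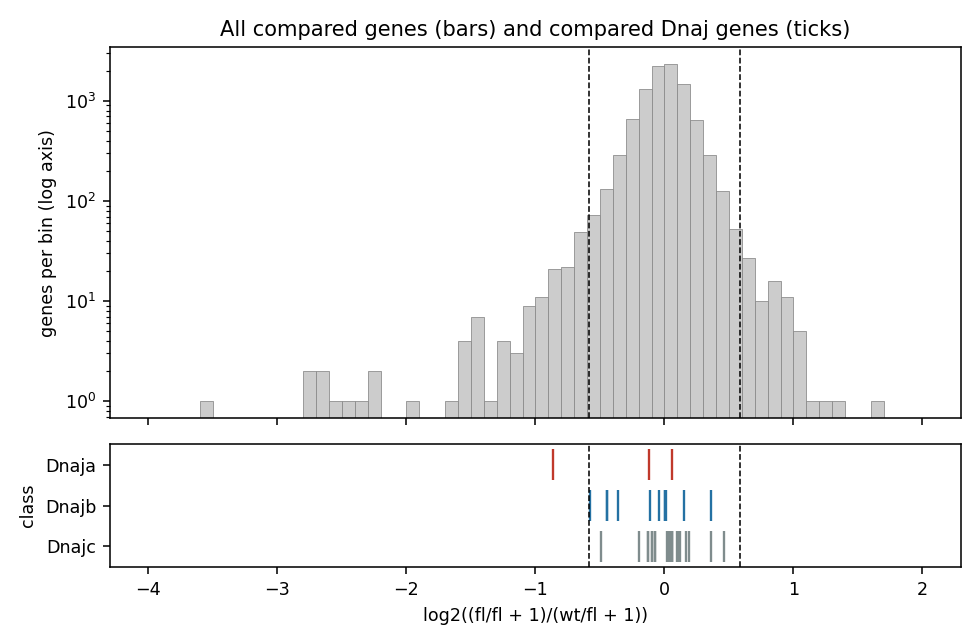
Number of compared genes per bin of 0.1 in log2 ratio of fl/fl over wt/fl on a log axis (bars, 9866 genes), and the log2 ratio of each compared Dnaj gene by class (ticks), with dashed lines at 1.5-fold. Dnaja1, at −0.87, is the only tick outside the dashed lines.

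Of the 6 members that were at least 20% lower, 4 belong to the cytosol and nucleus. Of the 9 members of that place, 8 were compared, with a median log2 ratio of −0.27. Of these 8, 1 was 1.5-fold lower and 4 were at least 20% lower in fl/fl, namely Dnaja1, Dnajb1, Dnajb2 and Dnajb4, where the shares among all compared genes were 1.53% and 5.48%. The other 4 kept similar pooled values. Dnaja2, the class A paralogue of Dnaja1, had 73.5 FPKM in wt/fl against 76.5 FPKM in fl/fl. Dnajb6 had 84.3 and 82.0 FPKM, Dnajc7 had 95.2 and 89.1 FPKM, and Dnajb5 had 7.08 and 7.15 FPKM. Dnaja4, a heat-inducible class A gene, did not pass the filter and had 0.851 and 0.432 FPKM.

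The order of the class A genes differed between the pools, with a ratio of Dnaja1 to Dnaja2 FPKM of 1.77 in wt/fl cells but of 0.927 in fl/fl cells. The summed level of the 9 cytosolic and nuclear members was 476.6 FPKM in wt/fl against 384.3 FPKM in fl/fl, 80.6% of the wt/fl level. Dnaja1 made up 27.3% of this sum in wt/fl and 18.4% in fl/fl. Over all 45 members the sum was 1118 FPKM in wt/fl against 1053 FPKM in fl/fl. Without Dnaja1 and Dnajb1, the members with the largest drops in FPKM, it was 927.7 and 942.5 FPKM. Leaving out the largest drops must raise the fl/fl sum relative to wt/fl, so this is a description only.

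All 10 members of the endoplasmic reticulum were compared, with a median log2 ratio of 0.0053. All 10 were within the milder thresholds, as were 8871 of all 9866 compared genes, so this count does not set them apart. Dnajb11, which binds nascent immunoglobulin chains with the HSP70 of this compartment, had 76.5 FPKM in wt/fl against 76.8 FPKM in fl/fl. Dnajb9, a gene induced by unfolded proteins in the endoplasmic reticulum, had 6.10 and 6.13 FPKM. Dnajc3, which restrains the kinases that block translation, had 25.2 and 24.0 FPKM, and Dnajc10, a disulfide reductase, had 18.1 and 18.6 FPKM. The values of their HSP70, Hspa5, were 285.3 FPKM in wt/fl against 264.0 FPKM in fl/fl.

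The 6 mitochondrial members had a median log2 ratio of −0.0078, and 6 were within the milder thresholds, which again is what most genes showed. Dnajc15, a component of the import machinery, had 38.1 FPKM in wt/fl against 39.8 FPKM in fl/fl, and Dnaja3, the class A member of the matrix, had 19.0 and 17.4 FPKM. Members that act at the ribosome and in its making were also within the milder thresholds, with 55.7 and 60.2 FPKM for Dnajc2, which binds the ribosome near the exit of the nascent chain, and 29.4 and 29.9 FPKM for Dnajc21, which takes part in maturation of the large subunit. Of the 3 members of splicing and chromatin, Dnajc9 had 97.8 and 99.6 FPKM and Dnajc8 had 67.7 and 73.1 FPKM. Dnajc17 was the third. The 3 compared members of vesicles and endosomes had a median log2 ratio of 0.17, and among them Dnajc13, an endosomal J protein, had 24.8 and 27.9 FPKM. Of 6 genes restricted to testis or neurons, 2 were compared, Dnajb7 and Dnajb13, which lay on opposite sides with a median of −0.0011. The 5 members without an assigned place had a median of −0.034 over the 4 that were compared.

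**Figure D4:**
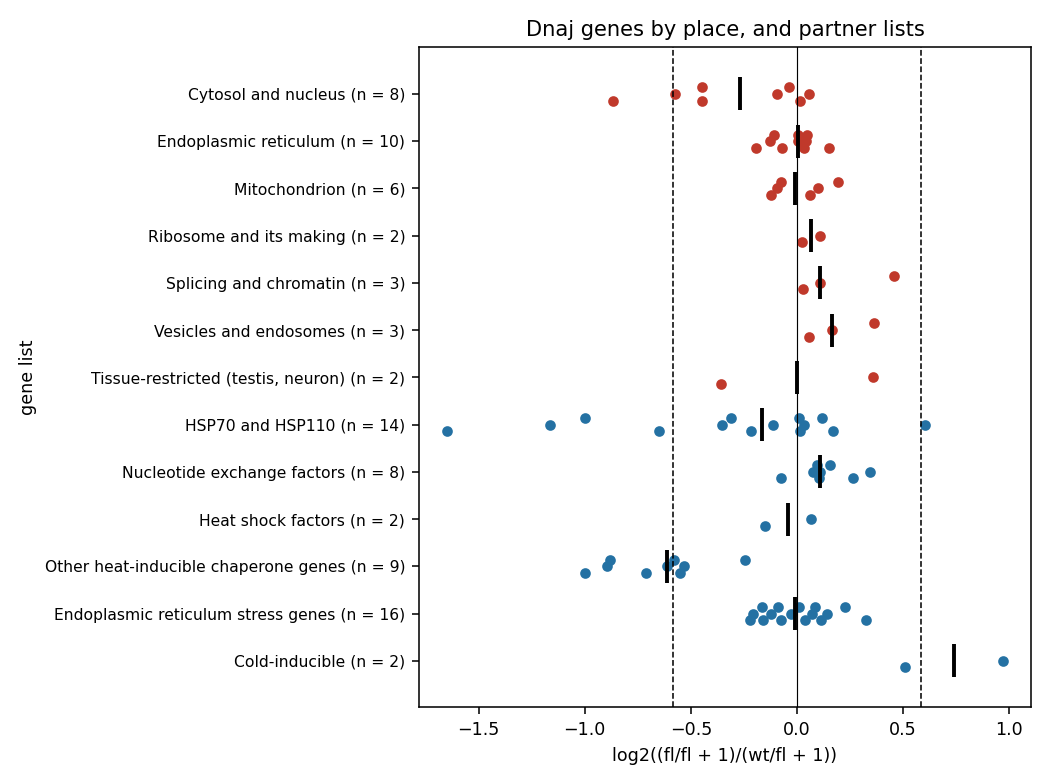
Log2 ratio of fl/fl over wt/fl, with 1 FPKM added to each pooled value, for the compared genes of each list (points, shifted vertically for visibility) with the list's median (black bar) and dashed lines at 1.5-fold. Dnaj genes by place are red and partner genes are blue. Among the Dnaj lists the cytosolic and nuclear members have the lowest median, −0.27, and the other heat-inducible chaperone genes have a median of −0.61.

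The values of a gene with several entries could differ between them. Of the 45 genes, 7 had more than 1 entry, and 44 of the 56 entries had the status OK, which means that the authors' software had enough data. All 44 had a mean of at least 1 FPKM. Of these 44, 3 (6.82%) were at least 1.5-fold lower and 0 were at least 1.5-fold higher in fl/fl, beside 3.34% and 2.86% of the 11278 entries of the whole table with that status and that mean. They belonged to Dnaja1, Dnaja3 and Dnajc12. The more abundant entry of Dnaja3 had 15.7 FPKM in both genotypes, whereas the less abundant had 3.35 FPKM in wt/fl against 1.66 FPKM in fl/fl. The main entry of Dnajc12 had 2.67 and 1.16 FPKM, and its minor entry, which did not have the status OK, had 0.321 and 0.679 FPKM.

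Of the 3 entries of Dnajb2, the most abundant had 8.50 FPKM in wt/fl against 6.30 FPKM in fl/fl, the next had 3.86 and 2.41 FPKM and the least abundant had 1.21 and 0.978 FPKM, so all had the lower value in fl/fl. For Dnajb6 the main entry had 50.9 and 52.6 FPKM, whereas the 2 least abundant were at least 20% lower in fl/fl, with 11.1 and 8.44 FPKM and with 3.44 and 2.04 FPKM. The second entry of Dnajb6 is listed at 18.9 FPKM with identical digits in both genotypes. This is the 1 entry among 21017 with a value above 0 for which that is so. Dnajc19 had a main entry with 16.3 and 19.9 FPKM and a minor entry with 4.01 and 3.42 FPKM. RefSeq lists the pseudogenes Dnaja1-ps, Dnajb6-ps and Dnajc19-ps, and how reads shared with such copies were assigned is not given in the sources used here.

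Promoter sequences were examined for 2 elements that are known to control chaperone genes. The heat shock element is the binding site of heat shock factors and consists of alternating inverted repeats of GAA. It was searched as 3 units, GAANNTTCNNGAA or TTCNNGAANNTTC, and as 2 units, GAANNTTC or TTCNNGAA, which lie within the longer forms. The endoplasmic reticulum stress element was searched as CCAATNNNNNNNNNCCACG or its reverse complement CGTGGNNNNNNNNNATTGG. RefSeq windows (GRCm38.p6) from 250 bases before to 50 bases after a start were found for 37 of the 45 genes, with 50 windows, and none for Dnajc2, Dnajc5, Dnajc5b, Dnajc11, Dnajc12, Dnajc18, Dnajc22 and Dnajc30. Stretches that overlap an annotated exon are given with at most 30 bases.

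The 3-unit element was found in 1 of 37 Dnaj genes (2.7%), beside 0.662% of 27025 genes with a window. The gene was Dnajb6, which had a similar summed level in both genotypes. The 2-unit element was found in 7 of 37 Dnaj genes (18.9%), beside 17% of all genes, and these were Dnaja1, Dnaja4, Dnajb4, Dnajb6, Dnajc5g, Dnajc10 and Dnajc27. Of these, Dnaja1 and Dnajb4 are among the members at least 20% lower, whereas Dnajb6, Dnajc10 and Dnajc27 had log2 ratios of −0.040, 0.041 and 0.057, and Dnaja4 and Dnajc5g did not pass the filter. Neither window of Dnajb1 held these letters, which says nothing about other forms of the element. The endoplasmic reticulum stress element was found in 1 of 37 genes (2.7%), Dnajc3, beside 0.137% of all genes. The stretches of Dnaja1, Dnajb4, Dnajb6 and Dnajc3 are shown because they include lower members and members of similar level, with the matched letters in capitals. They lie at chr4:40722333-40722362 (plus strand), chr3:152193846-152193899 (minus strand), chr5:29735844-29735872 (plus strand) and chr14:118937787-118937885 (plus strand) of GRCm38.p6.
Dnaja1: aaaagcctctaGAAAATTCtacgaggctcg
Dnajb4: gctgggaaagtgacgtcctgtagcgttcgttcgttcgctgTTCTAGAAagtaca
Dnajb6: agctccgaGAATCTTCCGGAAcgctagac
Dnajc3: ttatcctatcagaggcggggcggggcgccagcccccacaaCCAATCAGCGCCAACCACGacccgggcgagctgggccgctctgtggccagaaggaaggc

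The HSP70 proteins on which J proteins act were next compared. Of 15 HSP70 and HSP110 genes, 14 were compared. Of these, 4 were 1.5-fold lower in fl/fl, beside 1.53% of all compared genes, and 1 was 1.5-fold higher, beside 0.791%. Hspa8, the constitutive cytosolic HSP70, had 1574 FPKM in wt/fl against 788.3 FPKM in fl/fl. Hsph1, an HSP110 that exchanges the nucleotide of HSP70, had 128.8 and 40.3 FPKM, with a log2 ratio of −1.65. Its relative Hspa4l had 13.2 and 5.35 FPKM, and the heat-inducible Hspa1b had 3.76 and 2.04 FPKM. The higher gene, Hspa1l, had 0.854 and 1.82 FPKM, so it was below 1 FPKM in wt/fl and passed the filter through its fl/fl value. In wt/fl cells there were 12.1 FPKM of Hspa8 per FPKM of Dnaja1 and in fl/fl cells 11.1. Against all cytosolic and nuclear Dnaj genes together, the ratio of Hspa8 was 3.30 in wt/fl and 2.05 in fl/fl.

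Other heat-inducible chaperone genes lay in the same direction as Dnaja1. Of 10 listed, 9 were compared, all 9 had the lower pooled value in fl/fl and 5 were 1.5-fold lower, with a median log2 ratio of −0.61. Of all 9866 compared genes, 4880 had the lower value in fl/fl and 1.53% were 1.5-fold lower. This list, like the other lists, was chosen with earlier results of these data known. Its counts are therefore descriptions and not independent evidence. The most abundant were Hsp90ab1 with 935.6 and 647.4 FPKM, Hspe1 with 570.6 and 389.7 FPKM, and Hsp90aa1 with 386.7 and 207.8 FPKM. Besides Hsp90aa1, the genes past 1.5-fold were Chordc1 with 81.8 and 40.4 FPKM, Ahsa1 with 95.2 and 57.8 FPKM, Stip1 with 54.3 and 29.0 FPKM, and Fkbp4 with 81.6 and 53.0 FPKM, all of which encode partners of HSP90. The transcript of the heat shock factor Hsf1 had 44.4 FPKM in wt/fl against 39.9 FPKM in fl/fl, and Hsf2 had 3.49 and 3.71 FPKM.

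Of 10 nucleotide exchange factors listed apart from the HSP110 genes, 8 were compared and 0 were past 1.5-fold, with a median log2 ratio of 0.11. Hsph1 and Hspa4l, which were past 1.5-fold lower, were counted with the HSP70 genes and not here. Bag2, with 0.931 and 0.694 FPKM, and Bag3, with 0.448 and 0.0984 FPKM, did not pass the filter. Bag1 had 46.3 FPKM in wt/fl against 48.7 FPKM in fl/fl, Bag6 had 25.1 and 27.0 FPKM, and Bag5 had 18.6 and 23.8 FPKM. Of 16 genes of the endoplasmic reticulum stress response, 16 were compared and 0 were past 1.5-fold, with a median of −0.0096. With 1.53% of all compared genes 1.5-fold lower and 0.791% higher, a count of 0 does not set these 2 lists apart. The most abundant were Hsp90b1 with 423.3 and 362.9 FPKM, Atf4 with 143.7 and 144.5 FPKM, and Calr with 119.6 and 132.2 FPKM. Both cold-inducible genes had the higher value in fl/fl, Cirbp with 30.5 and 60.7 FPKM, which is past 1.5-fold, and Rbm3 with 324.6 and 461.6 FPKM.

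Some markers of other cells were also lower in fl/fl. Of 13 neutrophil markers, 9 were compared and 7 were 1.5-fold lower in fl/fl, beside 1.53% of all compared genes, and their summed level was 387.1 FPKM in wt/fl against 73.3 FPKM in fl/fl. The most abundant was S100a9 with 174.9 and 34.5 FPKM, while the granule genes Elane and Mpo were at 0.119 and 0.0916 FPKM in wt/fl and listed at 0 in fl/fl. Among the 7 lower markers, Ltf with 2.31 and 0.118 FPKM was below 1 FPKM in fl/fl and passed the filter through its wt/fl value. Of 6 erythroid markers, 5 were in the table under these symbols and 1 was compared, Beta-s, with 52.0 and 7.08 FPKM, in a sum of 54.8 and 7.94 FPKM. Of 5 plasma cell markers, 3 were compared and 2 were 1.5-fold lower, Igj with 5.40 and 0.617 FPKM and Sdc1 with 2.30 and 1.13 FPKM. Of these 2, Igj was below 1 FPKM in fl/fl and passed the filter through its wt/fl value. Xbp1 was the most abundant plasma cell marker, Tnfrsf17 was listed at 0 in both, and the sum was 57.6 and 48.5 FPKM. Of 10 macrophage and monocyte markers, 5 were compared and 0 were past 1.5-fold, with a sum of 18.7 and 16.7 FPKM and Cd68 as the most abundant. Of 9 T cell markers, 5 were compared and 0 were past 1.5-fold, with a sum of 25.8 and 23.9 FPKM and Lck as the most abundant. A count of 0 is what most genes showed, so it does not set the macrophage and T cell lists apart. The part of these cells in the Dnaja1 and Dnajb1 values was not tested, and in pooled bulk RNA fewer cells of a type and less RNA per cell cannot be told apart.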

How the data were processed

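Samples were grouped by genotype from their labels (3 wt/fl, 3 fl/fl). RNA had been amplified with the Ovation RNA-Seq system V2. The authors deposited 1 table in the layout of Cuffdiff, with 1 pooled FPKM per genotype for each coding sequence of a gene. The submitters' processing notes name Bowtie, TopHat and Cufflinks without versions, and the builds mm10 and GRCm38. The table's sequence names are those of mm9, and of 45 Dnaj loci 9 overlap the GRCm38 gene. Positions were not converted. The authors' own fold changes, test statistics, p-values, q-values and significance calls were not used. Here FPKM was summed per gene name. In 44 entries the gene symbol had become a date, which can merge genes, and these entries are in the totals of the table but were left out of the comparisons, a step added after the table was seen. Genes whose mean reached 1 FPKM were compared by log2((fl/fl + 1)/(wt/fl + 1)), with 1.5-fold as threshold. No test was run. The arithmetic of the ratios was tested on simulated data without noise, into which known folds had been put. This says nothing about the precision of the pooled values. Named were Myh9, members past or nearest to 1.5-fold, the 12 most abundant members, and fixed members and partners. Members and lists were chosen with earlier results of these data known. Alternatives were other pseudocounts, filters, scalings, sums and thresholds, and the setting without a pseudocount was added after seeing the data. Protein sequences were not analysed here. A planned list of J proteins is not reported here.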

Additional observations from a re-analysis of the deposited data

How the results depend on the processing

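The count of 1 Dnaj gene 1.5-fold lower in fl/fl became 2 with a pseudocount of 0.1 FPKM, 2 with entries of status OK only and 2 with the most abundant entry only, each time through Dnajc12, beside 2.59%, 1.54% and 1.87% of all genes compared there. With no pseudocount, chosen after seeing the data, it was 4, through Dnajb1, Dnajb13 and Dnajc12, beside 2.82%. It was 6 at 20% lower, beside 5.48%, and 0 at 2-fold, beside 0.405%. The count of 0 higher genes became 3 at 25% higher, beside 4.6%. The 3 lower entries became 5 with a pseudocount of 0.5 FPKM (4.22% of all such entries), 5 with 0.1 FPKM (5.12%), 7 with no pseudocount (5.4%), 1 with a mean of at least 5 FPKM (1.69%), 10 at 20% lower (9.47%) and 0 at 2-fold (1.18%). The 0 higher entries became 3 at 25% higher (8.29%). The shares of all entries thus moved in the same direction as the counts of Dnaj entries. The Dnaja median of −0.12 was −0.25 without a filter, which adds Dnaja4, and 0.0059 with the most abundant entry only, which leaves out the minor entry of Dnaja3. The Dnajb median of −0.040 also changed sign there, to 0.0046. It was −0.11 without a filter and −0.018 with a mean of at least 5 FPKM. Upper quartile scaling and centring left each of the 6 counts and medians of genes within 0.1 on the log2 scale or at the same count, and Dnaja1 was past 1.5-fold lower under all settings except the 2-fold threshold. Of 333 values of single genes under these alternatives, 324 moved by at most 0.1, and 9 moved more, in Dnaja3, Dnajb7, Dnajb13 and Dnajc12.

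No paired analysis was possible because the table holds 1 pooled value per genotype and none per sample. For the same reason leaving out replicates was not run. With unknown depth, the precision of genes near 1 FPKM, such as Dnajb7 and Dnajb13, is unknown.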
